A study of Drosophila melanogaster with 4 samples.

Results

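Weak solitary peaks of H3K4me3 were taken from the authors' peak list for Drosophila melanogaster white prepupae, animals that have just stopped moving at the start of metamorphosis. A peak was called weak where its score in the list was under 50 and strong otherwise, and solitary where more than 2000 bp without a peak lay on both sides of it. On the 6 chromosome arms (2L, 2R, 3L, 3R, 4 and X) 637 peaks met both limits, out of 7245 peaks on the arms and 7743 in the list. These peaks were selected on their scores and gaps, so both are given as a description. They are set beside the 2102 weak peaks of the same arms that had a neighbour within 2000 bp. The remaining 2 of the 2741 weak peaks were the first or last peak of an arm and belong to neither class.

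The study comprised 2 immunoprecipitated libraries, made with a polyclonal rabbit antibody to H3K4me3, and 2 input DNA libraries. All were labelled as white prepupae of the strain Y cn bw sp, and no other genotype, treatment or stage was compared. The shared genotype carries y[1] and oc[R3.2], then Gr22b[1], Gr22d[1] and cn[1] together with CG33964[R4.2], bw[1] and sp[1], and lastly lab[R4.2] with LysC[1] and MstProx[1], besides GstD5[1] and Rh6[1]. Whole animals hold many tissues, and a mark carried by few cells cannot be told apart from a mark that is low in all of them. One list stands for all 4 libraries, with no read count and no value per library. The depth is therefore unknown, the input level under a peak was not analysed here, and no difference below has a replicate error or a test. Intervals are 95% Wilson intervals for shares and binomial order-statistic intervals for medians, and they treat neighbouring peaks as independent and cover counting error only.

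Trimethylation of lysine 4 of histone H3 is placed mainly at the promoters of transcribed genes, where it typically spans the nucleosomes that follow the start site. Strong domains of the mark usually belong to genes transcribed in many cells, while low levels are also found at promoters used in few cells and at some enhancers. In a mixture of tissues, as in a whole prepupa, all of these contribute to one signal. No genome or annotation of FlyBase release 5 was used here, so the peaks are given by their coordinates on that release, without gene names and without sequence.

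At the score limit of 50, solitary peaks formed the same share of weak and of strong peaks. Of the weak peaks 23.2% were solitary (637 of 2741, interval 21.7 to 24.9%), and of the strong peaks 23.2% (1047 of 4504, interval 22.0 to 24.5%). The shares differed at other limits, and in opposite directions. With a limit of 25 they were 19.2% below it (17.6 to 21.0%) and 24.8% at or above it (23.6 to 25.9%). With a limit of 100 they were 25.8% below it (24.4 to 27.3%) and 20.9% at or above it (19.6 to 22.2%). The weak solitary peaks were 8.79% of the peaks on the arms (8.16 to 9.47%). Being narrow, they covered 382 kb, or 3.10% of the 12313 kb under all peaks of the arms.

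The equal totals at 50 go with a dependence on score that ran in opposite directions on the 2 sides of the score limit. Under a score of 10, solitary peaks were 11.5% of 340 peaks (8.51 to 15.3%). Their share was 16.3% from 10 to 15 (857 peaks), 23.3% from 15 to 20 (480 peaks) and 30.02% from 20 to 30 (513 peaks). From 30 to 50 it was 34.8% of 551 peaks (31.0 to 38.9%). The neighbouring strong class, from 50 to 100, had 35.5% of 722 peaks (32.1 to 39.0%), which the interval does not separate from the class below it. Above that the share was lower again, at 27.7% from 100 to 200, 19.9% from 200 to 300 and 15.8% of 1364 peaks at 300 or more (14.0 to 17.9%). The weakest and the strongest peaks of the list were thus the ones most often found beside another peak.

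**Figure D1:**
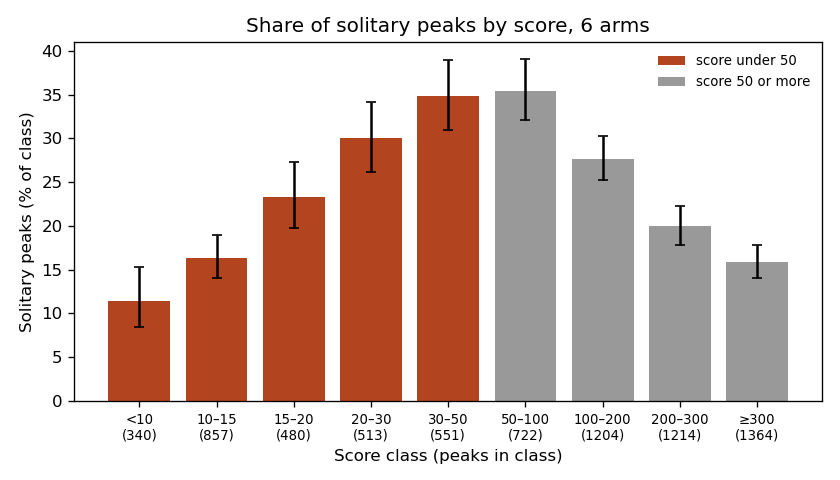
Share of peaks that are solitary (y axis, percent) in 9 classes of peak score (x axis, with the number of peaks on the 6 arms in each), with 95% Wilson intervals as error bars. Solitary peaks make up 11.5% of the peaks scoring under 10, 34.8% of those from 30 to 50, 35.5% of those from 50 to 100 and 15.8% of those at 300 or more.

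The same pattern appears as a difference in score between the weak classes. Weak solitary peaks had a median score of 21.4 (20.2 to 22.7), with quartiles of 14.1 and 32.6 and a range of 7.20 to 49.99. Weak peaks with a neighbour had a median of 15.3 (14.8 to 15.9), with quartiles of 11.2 and 24.3 and a range of 5.89 to 49.99. Scores under 10 belonged to 39 weak solitary peaks (6.12%, interval 4.51 to 8.26%) and to 301 weak peaks with a neighbour (14.3%, interval 12.9 to 15.9%). Scores under 20 belonged to 45.7% of the solitary peaks (41.9 to 49.6%) and 65.9% of the others (63.9 to 67.9%). The ranges overlapped almost completely, and the lower scores lay with the peaks that had a neighbour. The lowest score of a solitary peak, 7.20, occurred at 21623365 to 21623598 on 2L (234 bp) and at 6492970 to 6493170 on X (201 bp).

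Weak solitary peaks were short stretches. Their median width was 507 bp (483 to 538), with quartiles of 330 and 782 bp and a range of 201 to 2365 bp, against 402 bp (387 to 416) for weak peaks with a neighbour, with quartiles of 277 and 647 bp and a range of 201 to 2770 bp. For all peaks of the arms the median was 1328 bp. The narrowest width of the list, 201 bp, was taken by 9 solitary and by 43 neighboured weak peaks. At most 250 bp were covered by 65 solitary peaks (10.2%, interval 8.09 to 12.8%) and by 364 neighboured ones (17.3%, interval 15.8 to 19.0%). At the other end 86 solitary peaks (13.5%, interval 11.1 to 16.4%) and 216 neighboured peaks (10.3%, interval 9.05 to 11.6%) reached 1 kb.

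This difference in width did not hold at like score, where solitary peaks had the smaller median in each class but the highest. Under a score of 10 the median width was 241 bp for solitary peaks (211 to 276, 39 peaks) and 255 bp for neighboured peaks (247 to 264, 301 peaks). From 10 to 15 it was 307 bp for solitary and 308 bp for neighboured peaks, and from 15 to 20 it was 432 bp and 443 bp in the same order. From 20 to 30 solitary peaks measured 550.5 bp (504 to 607, 154 peaks) and neighboured peaks 615 bp (564 to 663, 358 peaks), the widest separation of the 5 classes. From 30 to 50 they measured 829.5 bp (784 to 925, 192 peaks) and 822.5 bp (766 to 862, 358 peaks). In each of the 5 classes the intervals of the medians overlapped. With the class medians averaged by the number of solitary peaks in each class, the widths were 541 bp for solitary peaks and 558 bp for neighboured peaks. Score and width come from the same peak call and are not independent measures.

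**Figure D2:**
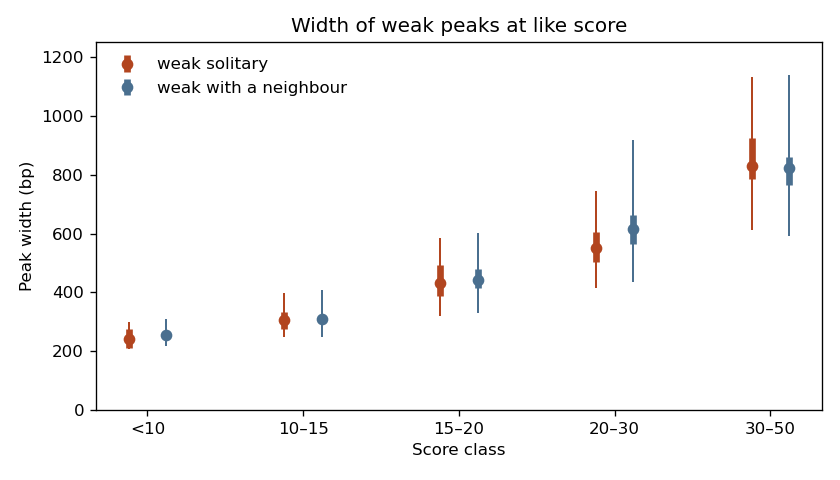
Width of weak peaks (y axis, bp) in 5 score classes (x axis) for weak solitary peaks (left of each pair) and weak peaks with a neighbour within 2000 bp (right); dots are medians, thick bars their 95% intervals and thin lines the quartiles. Widths rise with score in both classes, and within a class the medians lie close together, at 241 and 255 bp under a score of 10 and at 829.5 and 822.5 bp from 30 to 50.

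The gaps around weak solitary peaks reached far beyond the limit of 2000 bp. The smaller of the 2 gaps had a median of 7412 bp (6852 to 8171), quartiles of 3813 and 19462 bp and a highest value of 212590 bp. The larger gap had a median of 33207 bp (28913 to 37152). Strong solitary peaks had nearly the same surroundings, with a median smaller gap of 7468 bp (6918 to 8041) and a median larger gap of 29859 bp (27739 to 33398). Both gaps were over 10 kb at 259 weak solitary peaks (40.7%, interval 36.9 to 44.5%) and at 401 strong solitary peaks (38.3%, interval 35.4 to 41.3%). Both were over 50 kb at 44 weak (6.91%) and 64 strong (6.11%) solitary peaks, and over 100 kb at 10 weak (1.57%) and 9 strong (0.860%). Weak peaks were 36.1% of the solitary peaks whose smaller gap was between 2 and 5 kb (32.4 to 40.0%), 38.1% between 5 and 10 kb, 38.9% between 10 and 50 kb and 40.7% above 50 kb (31.9 to 50.2%). These intervals all overlap, and all include the 37.8% that weak peaks form of the arm peaks.

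Among weak solitary peaks, those farther from a neighbour had like scores and like widths. The median score was 21.4 (19.2 to 23.2) at 219 peaks with a smaller gap of 2 to 5 kb, 20.1 (17.5 to 24.3) at 159 peaks with 5 to 10 kb, 21.9 (19.9 to 24.1) at 215 peaks with 10 to 50 kb and 21.4 (17.3 to 31.6) at the 44 peaks above 50 kb. The median widths of these classes, from the smallest to the largest gap, were 513, 528, 491 and 497.5 bp. Once past the limit of 2000 bp, a longer distance to the next peak did not go with a detectable change in either measure.

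**Figure D3:**
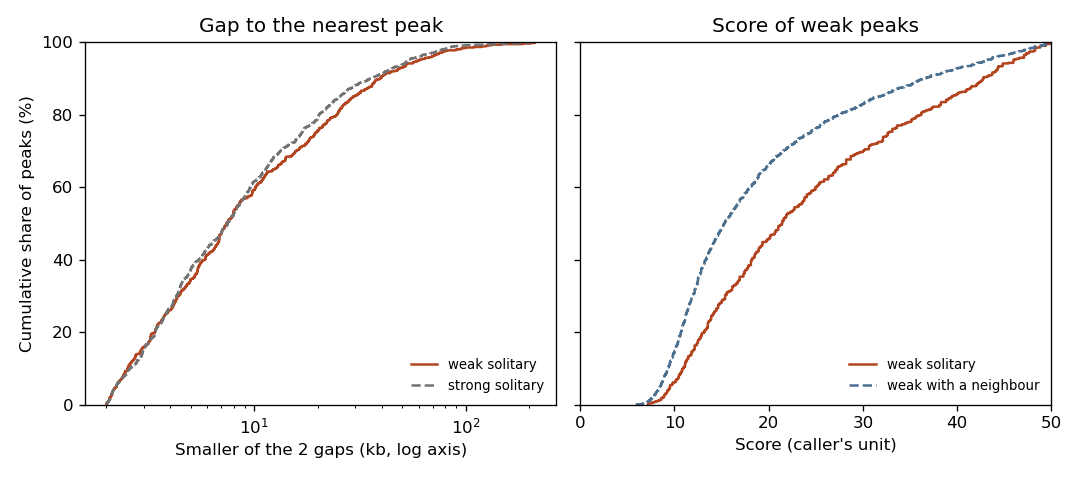
Cumulative share of peaks (y axis, percent) against the smaller of their 2 gaps (left, kb, log axis) for weak and strong solitary peaks, and against score (right, in the caller's unit) for weak solitary peaks and weak peaks with a neighbour. The gap curves run close together, with medians of 7412 and 7468 bp, while the score curve of solitary peaks lies to the right, with a median of 21.4 against 15.3.

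The nearest peak to a weak solitary peak was usually a strong one. This held for 411 of the 637 (64.5%, interval 60.7 to 68.1%), close to the 62.2% of arm peaks that are strong. Among weak peaks with a neighbour the nearest peak was strong in 1158 of 2102 cases (55.1%, interval 53.0 to 57.2%). The nearest peak of a weak solitary peak scored 99.4 at the median (87.4 to 117) and the peak on its other side 100.1 (83.8 to 115). The neighbours on both sides were strong at 251 weak solitary peaks (39.4%), exactly 1 was strong at 315 (49.5%) and both were weak at 71 (11.1%).

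The median distance of a weak solitary peak to the nearest strong peak was 10797 bp (9261 to 11961). A strong peak lay within 5 kb of 165 of them (25.9%, interval 22.7 to 29.4%), farther than 50 kb from 60 (9.42%) and farther than 100 kb from 13 (2.04%). For weak peaks with a neighbour the median distance was 691 bp (612 to 739). The gap limit itself keeps every weak solitary peak more than 2000 bp from a strong one. Of those neighboured peaks 1389 (66.1%) had a strong peak adjoining within 2000 bp, and 713 (33.9%) had only weak peaks there.

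A weak solitary peak was the next peak beside weak and beside strong solitary peaks at like rates. Of the 637 weak solitary peaks, 223 (35.0%, interval 31.4 to 38.8%) had another as the next peak on at least 1 side. Of the 1047 strong solitary peaks, 359 (34.3%, interval 31.5 to 37.2%) had a weak solitary peak there. Adjoining solitary peaks share a gap over the limit, so the rule itself favours such neighbours, and the runs below are a description. The weak solitary peaks formed 90 pairs, 13 runs of 3 and 1 run of 4, while 414 had no other weak solitary peak beside them. The run of 4 lay on X at 6440532 to 6493170, over 52.6 kb. Its peaks scored 21.0, 23.6, 33.6 and 7.20 in order along the chromosome and measured 322, 887, 1177 and 201 bp. The most compact run of 3 also lay on X, at 3835223 to 3844650, over 9.43 kb. Its peaks of 747, 689 and 1272 bp scored 17.9, 15.02 and 39.4 and were 3472 and 3248 bp apart. The longest run of 3 spanned 239.5 kb on 2R, at 2108564 to 2348079, with scores from 19.9 to 37.5. Between the members of these runs there was no other peak, strong or weak.

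The most isolated weak solitary peak of each arm, taken as the one whose smaller gap was the largest, stood within an otherwise empty stretch. On 3L the peak at 18391047 to 18391321 (275 bp, score 12.5) had 213 kb without a peak before it and 222 kb after it, so that without this peak the empty stretch would have measured 435 kb. On X the peak at 2842148 to 2842849 (702 bp, score 35.9) had gaps of 209 and 186 kb. On 3R the peak at 1982291 to 1982706 (416 bp, score 12.0) had gaps of 148 and 187 kb. These 3 peaks lay between 148 and 213 kb from the nearest strong peak.

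On the other arms the smaller gap was shorter. On 2R the peak at 13153150 to 13153604 (455 bp, score 14.7) had gaps of 125 and 129 kb. On 2L the peak at 17590273 to 17590821 (549 bp, score 36.2) had 89.1 kb before it and 373 kb after it, in a stretch of 462 kb without another peak. On chromosome 4 the peak at 854436 to 854694 (259 bp, score 11.2) had gaps of 46.2 and 31.3 kb. The 44 weak solitary peaks with both gaps over 50 kb were 12 of the 118 on 3L, 10 of 151 on 3R and 10 of 131 on X. They were 8 of 98 on 2L and 4 of 130 on 2R, and chromosome 4 had none among its 9. These 44 peaks scored 9.23 to 48.4 and measured 207 to 2365 bp. Of the 100 longest gaps on the arms, each at least 161 kb, 36 had a weak solitary peak at 1 or both of their ends, whereas 16.0% of all 7239 gaps did. A solitary peak has long gaps by the rule, so this count is a description.

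The widest weak solitary peaks passed the median width of strong solitary peaks. The widest of all covered 2365 bp on 3L at 10999911 to 11002275, scored 44.3 and had gaps of 108 and 52.3 kb. The widest on 2L, from 3352314 to 3354642 (2329 bp), scored 46.5, with the next peaks 32.5 and 17.4 kb away. The widest on X, at 19553729 to 19555922 (2194 bp), scored 32.6 and stood between strong peaks, with scores of 340 at 4237 bp and 324 at 2627 bp. A 3R peak of 1963 bp (15149841 to 15151803) reached 44.3, with gaps of 92.3 and 74.9 kb. The widest on 2R (1932 bp, 20075182 to 20077113) scored 32.1. All 5 of these widths exceed the median of 1721 bp among strong solitary peaks, whose widest covered 11309 bp, and 3 of them exceed the median of 2057 bp among strong peaks with a neighbour. All 5 scores are above the weak solitary median of 21.4.

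The highest weak solitary scores lay directly under the limit. A score of 49.99 was held by 2 of them, on 2L (820 bp, 1651521 to 1652340) and on X (1274 bp, 11283701 to 11284974). The first solitary peaks past the limit scored 50.3 at 6384680 to 6385345 on 2L (666 bp) and 50.4 at 5296470 to 5296971 on 2R (502 bp). On the other arms the highest scores were 49.8 on 3R at 5281500 to 5282253 (754 bp), 48.8 on 2R at 10107562 to 10109097 (1536 bp), 48.8 on 3L at 19287872 to 19288475 (604 bp) and 48.3 on chromosome 4 at 1216198 to 1217349 (1152 bp). At the gap limit, the solitary peak with the shortest gap was at 1322051 to 1322598 on 3L (gap 2001 bp, score 13.9). A shortest gap of 2009 bp was shared by the peak at 11672741 to 11673055 on 3L (score 18.1) and by adjoining peaks on 3R, at 19014240 to 19014451 (score 11.7) and 19016461 to 19016835 (score 19.8). Just outside it were the peaks at 15953262 to 15953462 on 3L (score 8.52) and at 12163459 to 12164001 on 3R (score 39.4), each with a gap of 1997 bp.

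All 6 arms carried weak solitary peaks. Per Mb of the span between the first and last peak there were 4.27 on 2L (98 peaks), 4.81 on 3L (118 peaks), 5.41 on 3R (151 peaks), 5.84 on X (131 peaks), 6.15 on 2R (130 peaks) and 6.98 on chromosome 4 (9 peaks). These densities carry no interval, and that of chromosome 4 rests on 9 peaks over 1.29 Mb. As a share of the weak peaks of the arm, weak solitary peaks made up 22.4% on 2L, 22.4% on 3L, 22.7% on 3R, 22.7% on X (19.5 to 26.3%), 25.7% on 2R (22.1 to 29.7%) and 9 of 30 weak peaks on chromosome 4 (16.7 to 47.9%). These intervals all overlapped. As a share of all peaks they ran from 7.73% on 2L (6.38 to 9.33%) to 9.61% on X (8.16 to 11.3%) among the large arms, and were 11.8% on chromosome 4 (6.36 to 21.0%). Neither share separated one large arm from the next beyond these intervals.

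**Figure D4:**
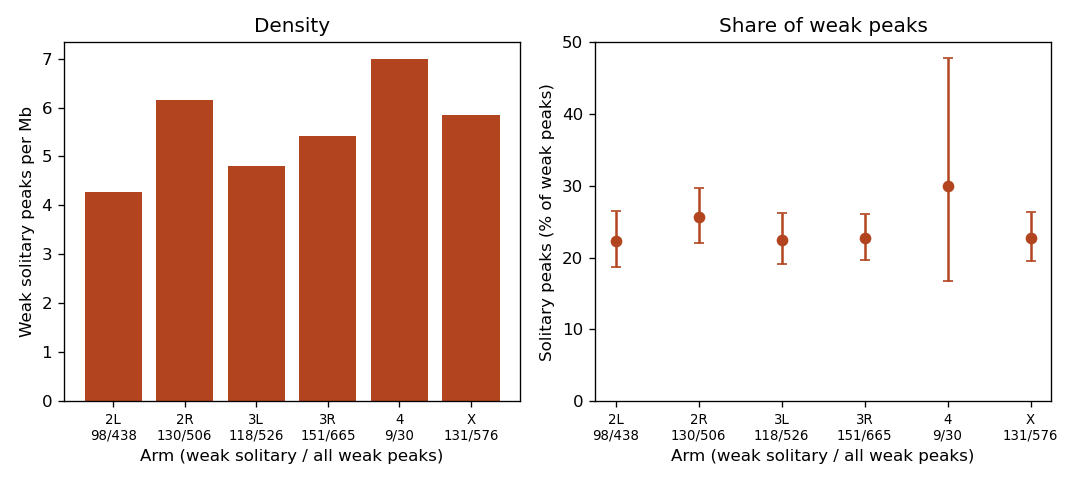
Weak solitary peaks per Mb of arm span (left) and as a percentage of the weak peaks of the arm with 95% Wilson intervals (right), for the 6 arms on the x axis with the counts below each name. Density, shown without intervals, runs from 4.27 per Mb on 2L to 6.98 on chromosome 4, where it rests on 9 peaks. The shares lie between 22.4% on 2L and 9 of 30 on chromosome 4, with overlapping intervals.

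Their width and score were also compared among the arms. Median widths were 465 bp on 3R (388 to 528), 485 bp on chromosome 4 (456 to 1152), 485.5 bp on 2L, 488.5 bp on 3L, 535 bp on X (489 to 595) and 545.5 bp on 2R (496 to 649). Median scores were 18.7 on 3R (17.3 to 22.5), 21.3 on 2L and on 3L, 22.1 on 2R, 22.7 on X (20.2 to 27.3) and 32.6 on chromosome 4 (11.2 to 44.3). The intervals of neighbouring arms in these orders overlapped for both measures, and the 9 peaks of chromosome 4 leave its medians poorly determined.

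On chromosome 4, a small and largely heterochromatic chromosome, 5 of the 9 weak solitary peaks scored above the median of 21.4. The first pair along the chromosome, at 157264 to 157846 (583 bp, score 16.7) and 194989 to 195552 (564 bp, score 18.2), were each other's neighbours across 37.1 kb. The second pair, 14.2 kb apart, joined a peak of 456 bp scoring 8.61 at 700531 to 700986 to the widest of the chromosome (1205 bp, score 44.3) at 715213 to 716417. The isolated peak scoring 11.2 and the one scoring 48.3, both given above, stood apart from these pairs. The last 3 were of nearly equal width. They lay at 1293120 to 1293591 (472 bp, score 32.6), 1305811 to 1306288 (478 bp, score 32.6) and 1312380 to 1312864 (485 bp, score 39.9). Those at 1305811 and 1312380 formed another pair, each other's neighbours across 6.09 kb.

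Along the arms most windows of 1 Mb held weak solitary peaks, though in unequal numbers, and the evenness of their spread was not tested. Of the 123 windows of 1 Mb counted from the first base of each arm, 119 held at least 1, and the median was 5 per window. The most, 15, lay on 2R at 18000001 to 19000000, among 84 peaks of which 35 were weak. They scored 8.84 to 47.1 and measured 201 to 1192 bp, and the median of their smaller gaps was 4502 bp. Windows with 11 lay on 3R at 21000001 to 22000000, among 58 peaks, and on X at 6000001 to 7000000, among 83 peaks. The window on X includes the run of 4. The 4 windows without one included 14000001 to 15000000 on 2L (10 peaks, 1 of them weak) and 1 to 1000000 on 2R (24 peaks, 11 weak). The others were 10000001 to 11000000 on 3L (25 peaks, 11 weak) and 22000001 to 23000000 on X. The window on X is the incomplete last window of its arm and held 1 peak, which was not weak. The windows on 2L and X thus had almost no weak peak that could have been solitary.

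Near the centromere, weak solitary peaks were about as frequent as weak peaks with a neighbour. Distance was counted from the outermost peak at the centromeric end of each arm, not from the end of the assembled sequence. Within 2 Mb of that peak lay 40 of the 637 (6.28%, interval 4.65 to 8.44%) and 138 of the 2102 weak peaks with a neighbour (6.57%, interval 5.58 to 7.71%). Of the 1047 strong solitary peaks 95 lay there (9.07%, interval 7.48 to 10.97%). Chromosome 4 is shorter than this distance and counts in full. On the 5 large arms alone the shares were 4.94% of weak solitary peaks (31 of 628, interval 3.50 to 6.92%), 5.62% of weak peaks with a neighbour (4.71 to 6.70%), 7.21% of strong solitary peaks (5.78 to 8.96%) and 5.83% of all peaks (5.31 to 6.40%). The share was highest for strong solitary peaks in both counts, with intervals that overlapped those of weak solitary peaks.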

How the data were processed

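H3K4me3 chromatin immunoprecipitation and input libraries of white prepupae were represented by 1 deposited peak list, on FlyBase release 5 per the file headers. The submitters' processing notes name BWA, MACS2 and CASAVA (1.7.0.2, 1.7.0.3), and the BDGP5 build. Not given in the sources used are the settings and how replicates and input entered the call. The scale of the deposited score is not named, and the authors' score served here only for filtering, ranking and description within the list. Start and end were taken as deposited.

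Width was end minus start plus 1, and a gap was the next start minus the end minus 1. Weak meant a score under 50, and solitary meant gaps over 2000 bp to both the previous and the next peak. The first and last peak of an arm have 1 gap and were left out of the members. The centromeric end was the high-coordinate end of the peak span on 2L, 3L and X and the low end on 2R, 3R and 4. The nearest strong peak was measured from edge to edge. No test was run, because the list has no value per library, and the depth is unknown. Regions were named by rule: per arm the most isolated, highest-scoring and widest member, the 5 widest and the 2 lowest-scoring of all, those nearest each limit, all of chromosome 4 and the 3 fullest windows. The runs, the windows with 0 members and the peaks of the run of 4 were singled out after their values were seen. The members and descriptions were chosen with earlier results of these data known. The assignment of members was tested on simulated data. Alternatives were score limits of 25 and 100, gap limits of 1000 and 5000 bp, counting the ends of arms, scores of 10 to 20 alone, distances between midpoints and, added after seeing the data, leaving out chromosome 4. Tools were scipy 1.17.1, pandas 2.3.3, numpy 2.4.6 and matplotlib 3.10.9 under Python 3.11.15.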

Additional observations from a re-analysis of the deposited data

Results flagged for a closer look

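The list also holds peaks outside the 6 arms, given here because they entered no comparison above. By the same limits 124 of the 147 weak peaks there were solitary (84.4%, interval 77.6 to 89.3%). Uextra, a string of unplaced fragments, held 106 of these, U held 10, and the heterochromatin sequences 2RHet, 3LHet and 3RHet held 4, 3 and 1. Their median width was 339.5 bp (299 to 359) and their median score 21.9 (19.3 to 27.8). Distances on concatenated fragments are not distances along a chromosome, so the share is not comparable with the 23.2% of the arms. The 2 peaks of YHet were weak and not solitary by the rule, since each is the first or last of its sequence.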

How the results depend on the processing

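Of 38 alternative values for 7 results, 18 stayed within the 95% interval of the reported value and 20 did not. Counting the ends of arms kept all 7 results within their intervals. It only raised the weak solitary peaks from 637 to 639, so it could hardly move them, and the tally is no measure of stability. With weak peaks limited to scores under 25 the solitary share was 19.2%, the median width 367.5 bp, the median score 15.4, the median distance to a strong peak 8834 bp, the share with a strong nearest peak 78.0% and the share of X peaks 5.14%. Under 100 these were 25.8%, 661 bp, 30.1, 13545 bp, 49.7% and 11.96%. The number of strong peaks moves with the limit too. Of the 7245 arm peaks 5258 were strong at a limit of 25, 4504 at 50 and 3782 at 100. The shares with a strong nearest peak are to be read against these counts. With gaps over 1000 bp the solitary share was 31.6%, the distance 6894 bp and the X share 13.2%, and over 5000 bp they were 15.2%, 18447 bp and 6.16%. The limits set these values by construction. Scores of 10 to 20 alone gave widths of 346.5 bp for solitary and 342 bp for neighboured peaks, and midpoints a distance of 12183 bp. Weak solitary peaks had the higher median score under all score and gap limits run. They were also wider under these limits, but from 10 to 20 the intervals of the widths overlapped, and averaged over 5 score classes solitary peaks were the narrower, at 541 against 558 bp. The share with a strong nearest peak was 49.7% against 48.0% of neighboured peaks at a score limit of 100, with overlapping intervals. The share near the centromere was 4.94% without chromosome 4. No paired analysis was possible because libraries have no values of their own in the list. Leaving out a replicate and weighing depth were not possible either.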
